A study of Mus musculus with 64 samples.

Results

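The 16 RNA-sequencing libraries of untreated mouse striatum were ordered by H2-K1, a gene for a classical MHC class I heavy chain, and the 5 libraries with the most H2-K1 were set against the 5 with the least. These 10 of 16 libraries were chosen by a measured value and are not groups of the study. H2-K1 itself is therefore described and not tested between the sets, and it was left out of the genes tested. Its level also served as the variable that other genes were set against in the correlations and continuous fits below. Each library came from 1 mouse of about 50 days, from punches of both striatal hemispheres pooled per mouse, with poly(A) RNA read as single ends of 50 bases. Of the 16 mice, 8 were labelled Csnk1e knockout and 8 wild type. Neither the deleted part of Csnk1e nor the strain or sex of the mice is stated in those labels. The 5 high libraries were 4 labelled wild type (mice 1, 8, 4 and 2) and 1 labelled Csnk1e knockout (mouse 6). The 5 low libraries were 1 labelled wild type (mouse 7) and 4 labelled Csnk1e knockout (mice 2, 5, 7 and 8).

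MHC class I molecules display short peptides at the cell surface. A heavy chain such as that of H2-K1 or H2-D1 pairs with the light chain beta-2 microglobulin, encoded by B2m, after the transporter made of TAP1 and TAP2 has moved peptides into the endoplasmic reticulum. Interferon gamma, through factors that include IRF1 and NLRC5, is known to raise the genes of this pathway together with immunoproteasome subunits and a large set of interferon-inducible GTPases. In brain tissue, class I transcripts are known in endothelial cells, microglia and neurons, and have been linked to synapse remodelling.

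The promoters of 5 genes are shown: H2-K1, which ranked the libraries, H2-D1, B2m and the GTPase genes Gbp2 and Irgm2. The last 4 had higher mean levels in the high set, but none passed the adjusted test between the sets. The promoters are RefSeq sequences on build GRCm38.p6, from 250 bases before to 50 bases after an annotated start, for H2-K1 the first of 2 listed. H2-K1 lies at chr17:34000298-34000597 on the minus strand, H2-D1 at chr17:35262844-35263143, B2m at chr2:122147437-122147736, Gbp2 at chr3:142620413-142620712 and Irgm2 at chr11:58214727-58215026, all 4 on the plus strand. Capitals mark matches, on either strand, to AANNGAAA, the core of an interferon response element, and to GGGNATTCC, a kappa B site.
H2-K1: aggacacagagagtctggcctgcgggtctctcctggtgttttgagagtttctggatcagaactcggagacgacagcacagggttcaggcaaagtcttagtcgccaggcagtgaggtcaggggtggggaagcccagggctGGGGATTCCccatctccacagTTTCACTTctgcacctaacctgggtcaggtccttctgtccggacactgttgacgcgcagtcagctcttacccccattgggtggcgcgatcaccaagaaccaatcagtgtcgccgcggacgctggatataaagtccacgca
H2-D1: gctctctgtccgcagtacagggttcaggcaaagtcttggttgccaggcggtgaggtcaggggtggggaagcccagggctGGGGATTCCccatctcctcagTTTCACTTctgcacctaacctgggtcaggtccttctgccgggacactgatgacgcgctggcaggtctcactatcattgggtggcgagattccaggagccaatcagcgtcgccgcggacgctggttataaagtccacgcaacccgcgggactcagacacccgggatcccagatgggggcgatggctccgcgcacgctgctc
B2m: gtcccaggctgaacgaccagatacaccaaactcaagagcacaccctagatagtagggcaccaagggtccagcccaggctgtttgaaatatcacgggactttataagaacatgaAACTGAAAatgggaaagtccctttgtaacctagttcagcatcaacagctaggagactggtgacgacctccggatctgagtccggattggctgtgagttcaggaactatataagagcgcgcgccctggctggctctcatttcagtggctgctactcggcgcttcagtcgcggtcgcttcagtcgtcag
Gbp2: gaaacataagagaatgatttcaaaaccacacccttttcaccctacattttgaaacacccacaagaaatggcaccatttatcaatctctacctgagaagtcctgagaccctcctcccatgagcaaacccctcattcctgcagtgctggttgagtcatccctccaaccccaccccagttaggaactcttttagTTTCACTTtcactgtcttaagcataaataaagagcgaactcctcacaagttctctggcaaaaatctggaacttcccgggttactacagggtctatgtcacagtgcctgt
Irgm2: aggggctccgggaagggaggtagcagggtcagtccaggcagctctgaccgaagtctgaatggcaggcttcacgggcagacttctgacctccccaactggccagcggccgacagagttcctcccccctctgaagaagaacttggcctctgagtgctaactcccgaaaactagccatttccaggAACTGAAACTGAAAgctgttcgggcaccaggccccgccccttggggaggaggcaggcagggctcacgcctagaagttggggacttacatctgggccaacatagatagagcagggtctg
H2-K1 and H2-D1 each hold 1 kappa B site and 1 interferon core, with 12 bases between them in both promoters. Their kappa B matches begin 111 and 171 bases before the annotated start. B2m and Gbp2 each hold 1 interferon core, and Irgm2 holds 2 that overlap by 2 bases. Among 32851 mouse promoters of the same length, 23.9% hold the interferon core and 0.776%, 255 promoters, the kappa B site. A match describes these letters and does not show that a factor binds there.

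H2-K1 lies on chromosome 17 from 33996017 to 34000347 on the minus strand (GRCm38, GENCODE M21). Its level, in CPM (the read count scaled to a common total of gene reads), was 47.5 in the library labelled wild type 1, 34.8 in wild type 8, 31.4 in wild type 4, 30.5 in knockout 6 and 27.1 in wild type 2. The low libraries held 23.8 in wild type 7, 23.5 in knockout 2, 23.1 in knockout 5, 22.3 in knockout 7 and 20.5 in knockout 8. The library labelled wild type 1 stood well above all others, while from rank 5 downwards the levels declined in small steps with no break. The 6 libraries between the sets, which the comparison did not use, ran from 24.1 to 27.0 CPM.

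The mean was 34.3 ± 7.89 CPM in the high set and 22.6 ± 1.34 CPM in the low set (SD, n = 5 each), a ratio of 1.51. These rest on 532 to 1129 H2-K1 reads per library. At rank 5 the high set ended at 27.1 CPM and rank 6 had 27.0, and at the lower edge rank 11 had 24.1 and rank 12 had 23.8. The edges of the sets were thus within counting error: the 95% Poisson interval of the rank 5 library met those of 8 of the 11 libraries below it. That of the rank 1 library met none. Over all mice the level was 24.7 ± 3.13 CPM in libraries labelled knockout and 30.0 ± 8.03 CPM in those labelled wild type (SD, n = 8 each).

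**Figure D1:**
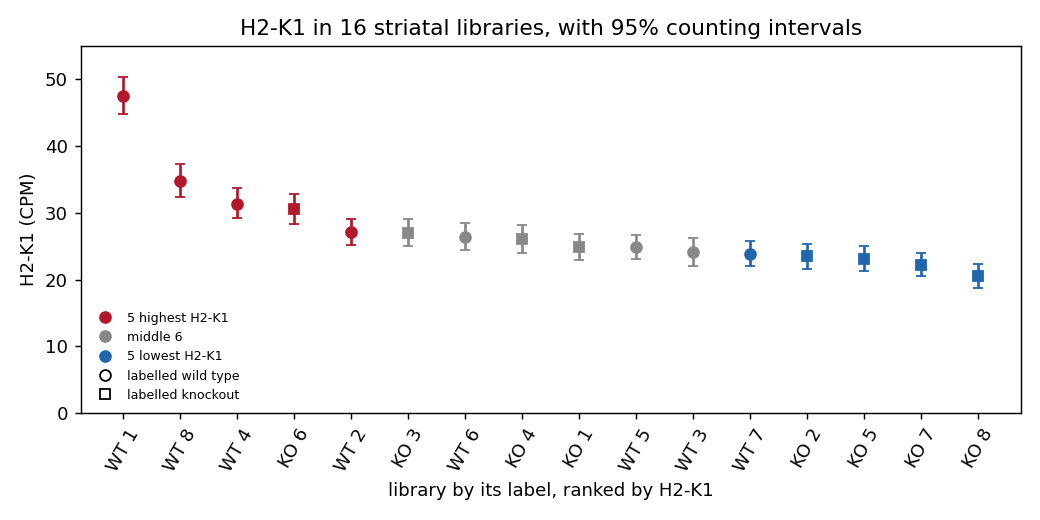
H2-K1 level (CPM, vertical axis from 0) of each of 16 libraries in order of rank, with 95% Poisson counting intervals; circles are labelled wild type (WT), squares labelled Csnk1e knockout (KO), and colour marks the 5 high, 6 middle and 5 low libraries. The library labelled wild type 1 is at 47.5 CPM, and the others run from 20.5 to 34.8 without a break between the sets.

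Csnk1e, the targeted gene, went against the genotype labels. It stood at 38.6 to 45.7 CPM in 7 libraries, 4 of them labelled wild type, and at 71.7 to 86.0 CPM in the other 9, so genotype is given only as labelled. In the high set it was 42.3, 42.4, 84.5, 38.6 and 45.7 CPM in order of rank, and in the low set 72.2, 75.0, 79.6, 45.0 and 39.2 CPM. The set means of 50.7 ± 19.1 and 62.2 ± 18.7 CPM differed by less than the spread (SD, n = 5 each; exact permutation test, two-sided, p = 0.468). All 5 high libraries had a male-like transcript pattern with Y-linked genes, against 3 of the 5 low ones. The other 2 low libraries, labelled wild type 7 and knockout 8, were female-like. Gene reads ran from 22088005 to 30238947 over the 16 libraries and averaged 24864500 in the high set and 26956988 in the low set (exact permutation p = 0.0952). Reads with more than 1 alignment made up 22.4% and 21.7% (exact permutation p = 0.0476, and 0.286 after adjustment over 6 properties). Labelled genotype and transcript sex therefore moved in part with H2-K1, and key values are given again with each of them as a covariate. Shared markers of striatal projection neurons summed to 6093 to 8407 CPM in the high set and 6360 to 9055 CPM in the low set.

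No gene passed the test between the high and the low set. Of 15497 genes, 0 (0%) reached an adjusted p under 0.05 in the quasi-likelihood test of edgeR, and the smallest adjusted p was 0.883. At an unadjusted p under 0.05 there were 323 higher genes (2.08%) and 414 lower genes (2.67%), 737 in all (4.76%). With DESeq2 2 genes were called, Gbp4 as higher and Xist as lower (adjusted p = 0.0340 for both), with 693 genes at an unadjusted p under 0.05, and limma-voom called 0 with 709. Genes with all 5 high libraries above all 5 low ones numbered 50 (0.323%), and 48 (0.31%) lay wholly below. Fold changes below are log2 values, high minus low, ± SE, and each named gene had an adjusted p of 0.883 or more.

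Among the heavy chains, H2-D1, the other classical class I gene with reads, and H2-Q4, a non-classical gene of the Q region, were higher in every high library than in any low one. H2-D1 (chromosome 17, 35262730 to 35267499) was at 24.3, 16.3, 14.1, 13.7 and 13.9 CPM in the high libraries by rank and at 10.3, 13.1, 13.0, 12.8 and 10.8 CPM in the low ones. H2-Q4 (chromosome 17, 35379617 to 35385290) was at 14.7, 6.89, 6.42, 7.15 and 6.58 CPM against 5.08, 5.68, 4.82, 6.00 and 5.65 CPM. In both genes the library labelled wild type 1 stood far above the other 4 high libraries, which lay close to the low set. The log2 differences were 0.45 ± 0.15 for H2-D1 and 0.61 ± 0.22 for H2-Q4, and without that library 0.26 ± 0.10 and 0.30 ± 0.09. These values are uncertain because class I genes are near copies of each other. Of the 1825 stretches of 50 bases in the H2-K1 transcript, 6.52% occur unchanged in H2-D1 and 2.9% in H2-Q4, and 25% and 22.6% occur with at most 2 mismatches.

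Of the 22 heavy chain genes listed besides H2-K1, 11 had enough reads to be tested and 6 were at 0 in all libraries. Of the 11, 6 had a log2 difference above 0, against 50.6% of all genes tested, and the median was 0.15, against 0.00 over all genes. At an unadjusted p under 0.05 3 of the 11 were higher, where 2.08% of all genes were. The third, beside H2-D1 and H2-Q4, was H2-Q5, at 0.90 ± 0.39 but with overlapping sets of 0.354 to 0.842 and 0.0772 to 0.417 CPM. Of the 11 genes, 5 were below 0. H2-T24 differed by -0.01 ± 0.09, H2-T10 by -0.07 ± 0.16 and H2-M3, which presents formylated peptides, by -0.04 ± 0.15. H2-K2 differed by -0.10 ± 0.24 and H2-M5 by -0.15 ± 0.30. H2-T23, the Qa-1 heavy chain that engages inhibitory NK receptors, was at 0.15 ± 0.11.

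B2m, the light chain that every classical class I molecule needs, shares no stretch of 50 bases with H2-K1. It lies on chromosome 2 from 122147686 to 122153083. Its level was 103, 86.8, 82.8, 73.4 and 75.7 CPM in the high libraries by rank and 72.7, 58.4, 71.8, 64.6 and 71.6 CPM in the low ones. The sets did not overlap, although the lowest high value, in knockout 6, lay just above the highest low value, in wild type 7. The difference was 0.31 ± 0.09 (95% CI 0.11 to 0.51), and 0.22 ± 0.08 without the library labelled wild type 1. Of the 6 tested genes of the light chain and MHC I-like list, 4 were above 0 with a median of 0.07. None but B2m reached an unadjusted p under 0.05, where 2.08% of all genes were higher. Fcgrt, the neonatal Fc receptor chain, was at 0.13 ± 0.07, and Hfe, the iron-regulating class I-like gene, at -0.19 ± 0.15.

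Of the 9 peptide loading genes, 5 were above 0 with a median of 0.11, and none passed the adjusted test. At an unadjusted p under 0.05 Tap1 and Tapbp, which lie in the MHC region, were higher, where 2.08% of all genes were. Hspa5 and Calr, which encode chaperones of the endoplasmic reticulum, were lower at that level, where 2.67% of all genes were. Tap1, which encodes a subunit of the peptide transporter, was at 4.55, 3.87, 3.11, 3.99 and 3.15 CPM in the high libraries and 3.17, 2.60, 2.39, 2.56 and 2.28 CPM in the low ones. Only the low library labelled wild type 7 reached into the range of the high set. The difference was 0.51 ± 0.14 (95% CI 0.21 to 0.82) and held at 0.43 ± 0.14 without wild type 1. Tap2, its partner, was at 0.21 ± 0.10 with overlapping sets. Tapbp, which encodes tapasin, the bridge between the transporter and the heavy chain, ran from 28.9 to 32.7 CPM in the high set and from 25.3 to 28.3 CPM in the low set, without overlap, a small difference of 0.17 ± 0.05. Hspa5, the chaperone BiP, was at -0.41 ± 0.13 and calreticulin, from Calr, at -0.15 ± 0.06. Canx and Pdia3, the other chaperones on the list, were at -0.08 ± 0.05 and -0.13 ± 0.07.

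The immunoproteasome subunits Psmb8, Psmb9 and Psmb10 replace the standard catalytic subunits when interferon acts. Psmb9, next to Tap1 on chromosome 17, was at 2.27, 2.09, 1.94, 1.52 and 1.38 CPM in the high libraries and 1.55, 1.58, 1.51, 1.06 and 1.18 CPM in the low ones. The 3 libraries with the most H2-K1 lay above the low set and the other 2 within its range, for a difference of 0.41 ± 0.19. Psmb8 rested on a single library. It was at 5.26 CPM in wild type 1 and at 3.11 to 3.44 CPM in the other 4 high libraries, inside the low range of 2.63 to 3.90 CPM, and its difference went from 0.19 ± 0.16 to 0.02 ± 0.13 when wild type 1 was left out. Psmb10 was at 0.10 ± 0.14, and the activator subunits Psme1 and Psme2 at -0.02 ± 0.07 and 0.04 ± 0.05. The median of the 5 genes was 0.10.

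Nlrc5, the transactivator that acts on class I promoters, was at 2.44, 2.27, 2.34, 1.52 and 1.20 CPM in the high set and 1.59, 1.24, 0.733, 1.35 and 1.33 CPM in the low set. It was high in the 3 libraries labelled wild type 1, 8 and 4, while knockout 6 and wild type 2 overlapped with the low set. Its difference was 0.63 ± 0.24, and 0.53 ± 0.25 without wild type 1. Irf1, a transcription factor of the interferon response, was at 0.19 ± 0.09. Of the 15 regulators tested, 6 were above 0 and the median was -0.02, so the list as a whole lay at the level of all genes. Creb1, which binds a further element of class I promoters, was at -0.14 ± 0.05.

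**Figure D2:**
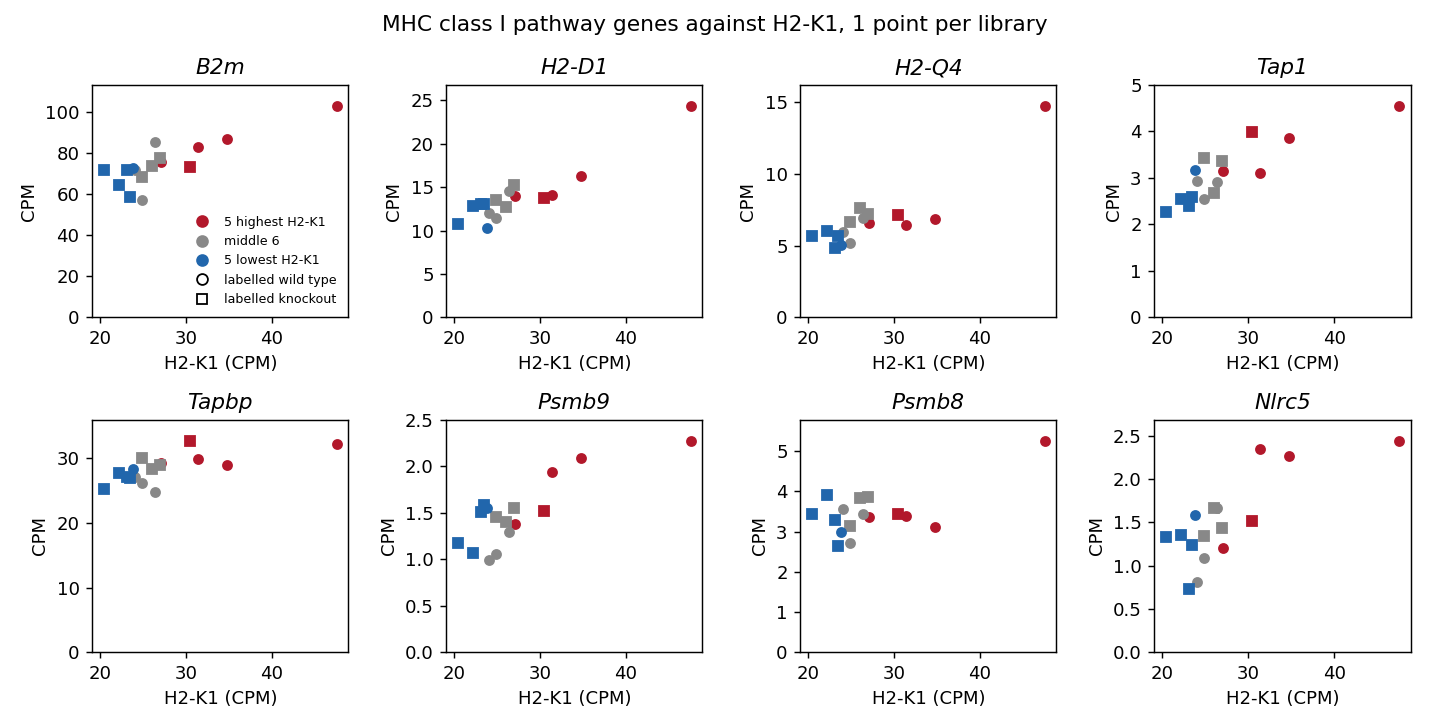
Level (CPM) of 8 class I pathway genes against H2-K1 (CPM), 1 point per library, with circles for labelled wild type, squares for labelled knockout and colour for the high, middle and low sets; the horizontal axes do not start at 0. H2-D1, H2-Q4 and Psmb8 are set apart mainly by the library at the right, labelled wild type 1 (24.3, 14.7 and 5.26 CPM), while Tap1 and Tapbp differ over several libraries.

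The genes most often higher together with H2-K1 were interferon-inducible GTPases, which attack the vacuoles of intracellular microbes, and other targets of interferon gamma. Of the 14 tested genes on that list of 18, all 14 had a log2 difference above 0 and the median was 0.36, against 0.00 over all genes. At an unadjusted p under 0.05, 10 of the 14 were higher, where 2.08% of all genes were, and 5 of the 14, Gbp4, Tgtp2, Irgm1, Irgm2 and Ifi47, had every high library above every low one, where 0.323% of all genes had. None passed the adjustment over all genes with edgeR. The genes are not independent measurements, since they share their inducers and several lie in clusters on chromosomes 3, 5 and 11.

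Gbp4, a guanylate-binding protein gene on chromosome 5 (105115767 to 105139586), had the smallest p of all genes. It was at 8.84, 6.80, 7.63, 11.3 and 5.88 CPM in the high libraries and 4.47, 5.38, 3.51, 4.79 and 4.97 CPM in the low ones. Its highest level was in knockout 6, not in the library with the most H2-K1. The difference was 0.80 ± 0.17 (95% CI 0.44 to 1.16; edgeR unadjusted p = 0.000373), and between 0.65 and 0.90 when each of the 10 libraries was left out in turn. Gbp4 and Gbp9 overlap in the annotation, and Gbp9 was at 0.20 ± 0.14. Gbp2, Gbp3 and Gbp5 on chromosome 3 differed by 0.42 ± 0.12, 0.27 ± 0.10 and 0.47 ± 0.14, each with overlap at the edge of the sets. Gbp2 ran from 5.77 to 8.67 CPM in the high set and from 4.65 to 5.84 CPM in the low set. Gbp6 and Gbp7 were at 0.24 ± 0.24 and 0.16 ± 0.11.

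Of the immunity-related GTPases on chromosome 11, Irgm1 and Irgm2 had no overlap between the sets and Igtp had. Irgm1 (48861968 to 48871683), a regulator of the family that also acts in autophagy, was at 10.1, 9.24, 11.6, 11.9 and 10.5 CPM in the high libraries and 8.62, 8.65, 8.30, 8.38 and 9.21 CPM in the low ones. Irgm2 was at 9.39, 7.87, 9.16, 10.1 and 7.50 CPM against 5.62, 7.45, 5.63, 6.49 and 6.86 CPM. In both, the sets met closely, at 9.24 and 9.21 CPM for Irgm1 and at 7.50 and 7.45 CPM for Irgm2, and wild type 1 was not the highest library. The differences were 0.30 ± 0.08 and 0.45 ± 0.11. Irgm2 overlaps Igtp, another member of the family, in the annotation, and Igtp was at 0.10 ± 0.15, from 4.49 to 6.82 CPM in the high set and from 4.33 to 7.02 CPM in the low set.

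Tgtp2, an interferon-inducible GTPase gene, gave the largest of these differences, 1.26 ± 0.29, at the lowest level. It was at 0.758, 0.667, 0.605, 0.679 and 0.389 CPM in the high set and 0.360, 0.301, 0.193, 0.142 and 0.265 CPM in the low set, and it rests on 152 reads over the 16 libraries. Its near copy Tgtp1 had too few reads to be tested, and reads may be split or lost between them. Iigp1 was at 3.96, 4.04, 4.52, 4.15 and 2.76 CPM against 3.10, 3.08, 2.08, 1.88 and 2.09 CPM, a difference of 0.66 ± 0.18 with wild type 2 inside the low range. Ifi47 was at 0.54 ± 0.16 and Cd274, the checkpoint ligand PD-L1, at 0.30 ± 0.12.

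**Figure D3:**
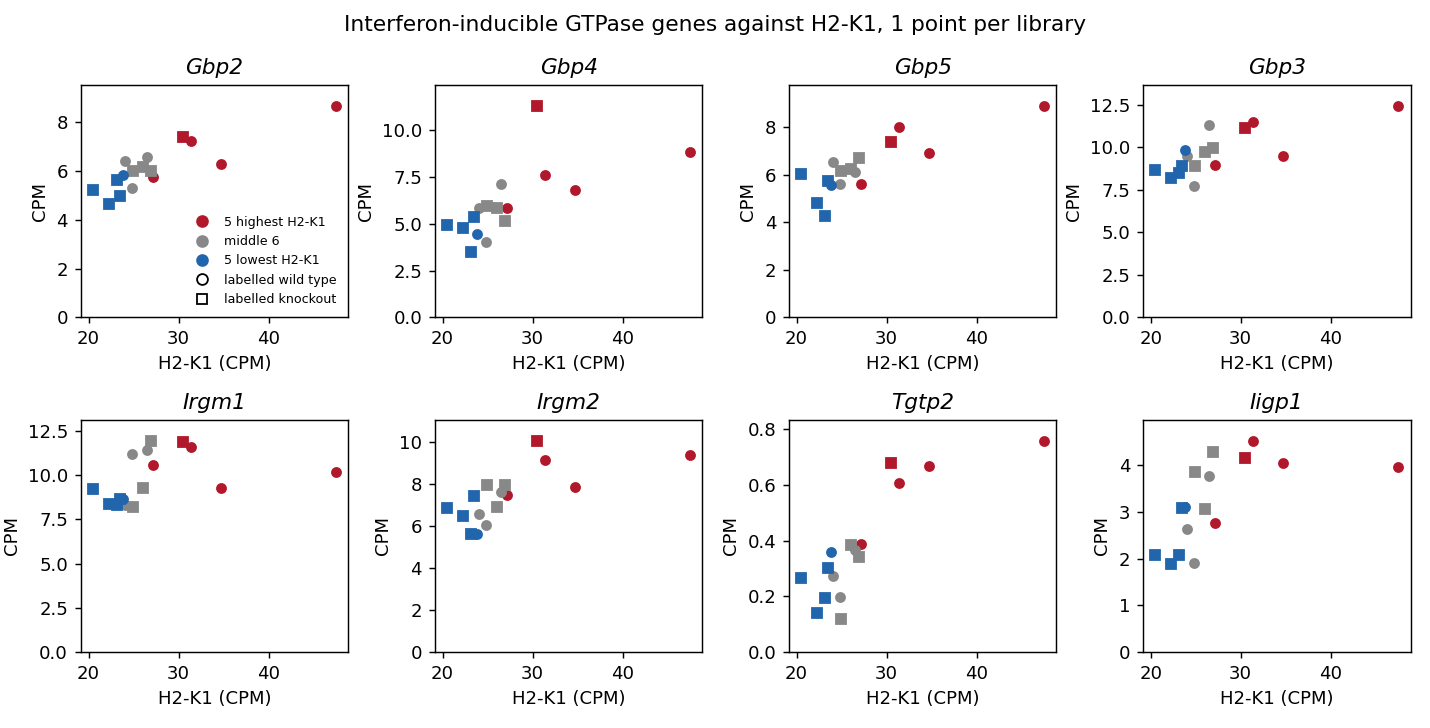
Level (CPM) of 8 interferon-inducible GTPase genes against H2-K1 (CPM), 1 point per library, with shapes and colours for label and set; the horizontal axes do not start at 0. Gbp4, Irgm1, Irgm2 and Tgtp2 show no overlap between the 5 high and the 5 low libraries, with Gbp4 highest in the library labelled knockout 6 (11.3 CPM).

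The sequence around the starts of these genes was searched with the same motifs. Of the 14 tested genes of the list, 10 had a promoter in the RefSeq table. All 10 held the interferon core, which 26.7% of the 27025 genes in the table hold, and 5 held the gamma activated site TTCNNNGAA, which 9.55% of genes hold. The list was made of known interferon gamma targets, so these shares describe the list and say nothing about the libraries. None of the 10 held the kappa B site printed above for H2-K1 and H2-D1. The 4 without an entry were Gbp4, Gbp6, Gbp9 and Iigp1. Tap1 and Psmb9 held none of the 3 motifs in their windows.

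Among genes induced mainly by type I interferon, 27 of 31 tested genes were above 0, against 50.6% of all genes, with a median of 0.13. At an unadjusted p under 0.05 2 were higher, where 2.08% of all genes were. The difference from the interferon gamma list was not tested. Oasl2, an oligoadenylate synthetase-like gene, was at 0.36 ± 0.14 and ran from 4.48 to 6.45 CPM in the high set and from 3.05 to 4.70 CPM in the low set. Ifit1, which binds RNA lacking a self cap, was at 0.35 ± 0.13, with its highest level of 6.17 CPM in a middle library, knockout 3. The receptors and kinases did not share the direction: 2 of 7 were above 0, the median was -0.04, and Jak2, the kinase of the interferon gamma receptor, was at -0.16 ± 0.06, and Ifnar2, a chain of the type I interferon receptor, at 0.06 ± 0.06. Of the ligands, which were added after the values were seen, Ifng had 5 reads in all and Ifnb1 had 0 over the 16 libraries.

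MHC class II genes gave no such pattern. Of 10 tested, 6 were above 0 with a median of 0.06 and none reached an unadjusted p under 0.05. Cd74, the class II invariant chain, was at 2.36, 0.667, 2.10, 2.12 and 1.63 CPM in the high set and 1.95, 1.92, 1.58, 0.923 and 1.74 CPM in the low set. The sets overlapped throughout, at 0.13 ± 0.28. H2-Eb1, a class II beta chain gene, was at 0.39 ± 0.32. Complement genes had a median of 0.04, with 7 of 12 above 0. C4b, a complement gene of the MHC region, was at 0.35 ± 0.16 and lay highest of the 10 libraries in wild type 1 (21.5 CPM), below the 24.4 CPM of the middle library wild type 5, and C1qc, a chain of C1q, was at 0.14 ± 0.05.

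Immune cell markers did not separate the sets. In bulk tissue fewer cells of a type and less RNA per cell cannot be told apart. The 12 microglial markers summed to 686 to 754 CPM in the high set and 634 to 704 CPM in the low set, with 9 of 12 above 0 and a median of 0.05. Lymphocyte markers rested on few genes: 3 of 15 were tested, Cd4 alone made up most of the sum, and Cd3e, which defines T cells, had 15 reads over all libraries. Markers of monocytes and neutrophils summed to 0.599 to 1.24 CPM and 0.497 to 1.39 CPM, and none was tested. The 7 class I receptor genes in the files summed to 0.708 to 1.26 CPM and 0.887 to 1.01 CPM, and none was tested. All 4 tested markers of perivascular macrophages were below 0, with a median of -0.31, and Cd163, a scavenger receptor, was at -0.28 ± 0.11.

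Of 12 endothelial genes 11 were above 0, against 50.6% of all genes, with a median of 0.07. At an unadjusted p under 0.05 2 were higher, where 2.08% of all genes were, and 1 without wild type 1, where 2.09% were. In the continuous fit described below 6 of the 12 were higher at that level, where 3.7% of all genes were. Without wild type 1 that fit had 1, where 4.45% of all genes were higher. Slco1a4, a transporter gene of brain vessels, was at 0.16 ± 0.07. Cldn5, the tight junction claudin, was at 41.0 ± 3.61 CPM in the high set and 34.5 ± 3.28 CPM in the low set (SD, n = 5 each), a difference of 0.25 ± 0.08. The endothelial list summed to 566 to 636 CPM and 513 to 587 CPM, so the sets overlapped. In the middle libraries none of the 12 endothelial genes was higher in the upper 3, which were all female-like while the lower 3 were all male-like, so that H2-K1 rank and transcript sex cannot be told apart there. Of 10 mural markers 4 were above 0 with a median of -0.08. Only 1 was lower at an unadjusted p under 0.05, where 2.67% of all genes were: Acta2, smooth muscle actin, at -0.42 ± 0.16. Astrocyte and oligodendrocyte markers both had medians of 0.10, with 9 of 11 and 9 of 12 above 0. Higher at an unadjusted p under 0.05 were 1 astrocyte and 0 oligodendrocyte genes, where 2.08% of all genes were. The astrocyte genes Ntsr2, a neurotensin receptor, and Slc1a3, a glutamate transporter, were at 0.26 ± 0.09 and 0.14 ± 0.07. The myelin genes Mobp and Mog were at 0.19 ± 0.15 and 0.14 ± 0.14. All 6 markers of oligodendrocyte precursors were above 0 with a median of 0.07, and Matn4, a matrilin gene, was at 0.20 ± 0.13. Of the markers of leptomeningeal fibroblasts 2 of 8 were above 0 with a median of -0.16, and of the ependymal markers 5 of 6 with a median of 0.21. The part of these cell types in the class I values was not tested.

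All 10 shared markers of striatal projection neurons were below 0 with a median of -0.12. Of these, 1 was lower at an unadjusted p under 0.05, where 2.67% of all genes were. Foxp1, a striatal transcription factor, was at -0.21 ± 0.10 and Pde10a, a striatal phosphodiesterase, at -0.27 ± 0.14. Of the direct pathway markers 2 of 8 were above 0 with a median of -0.12, and Tac1, which encodes substance P, was at -0.27 ± 0.10. Of the indirect pathway markers 3 of 7 were above 0 with a median of -0.04, and Gpr52, an orphan receptor gene, was at -0.35 ± 0.13. Cortical markers had a median of 0.11, with 7 of 8 above 0, and Emx1, a cortical homeobox gene, was at 0.48 ± 0.30. Among 6 tested choroid plexus transcripts 5 were lower at an unadjusted p under 0.05, where 2.67% of all genes were. Their median of -3.09 was the largest list value. One library set this value: Ttr, the transthyretin gene, was at 2149 CPM in the low library labelled wild type 7 and at 2.87 to 23.9 CPM in the other 9. Without that library its difference went from -5.56 to 0.04.

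Most genes of the chaperone lists had differences below 0. Xbp1, a transcription factor of the unfolded protein response, was at 77.4, 72.5, 76.2, 71.8 and 74.4 CPM in the high set and 88.2, 79.0, 88.3, 79.2 and 104 CPM in the low set. The sets did not overlap, and the difference was -0.24 ± 0.07. Hspa5 was at 221, 207, 230, 207 and 212 CPM against 317, 215, 265, 236 and 391 CPM, with its 2 highest values in knockout 8 and wild type 7. Those 2 libraries are the female-like ones of the low set. Of the 10 genes of the unfolded protein response 8 were below 0 with a median of -0.14. The heat shock list also had 8 of 10 below 0, with a median of -0.12 and 4 genes at an unadjusted p under 0.05, where 2.67% of all genes were lower, but 1 without the library labelled wild type 1. Hsph1 was at -0.19 ± 0.07 and Hspb1, a small heat shock protein gene, at -0.33 ± 0.14. With transcript sex as a covariate Hspa5 was at -0.15, Xbp1 at -0.15 and Hsph1 at -0.13.

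Of 11 activity-regulated genes 6 were above 0 with a median of 0.00, and Ier2, an immediate early gene, was at 0.42 ± 0.17. Of 14 circadian clock genes 6 were above 0 with a median of -0.02. Cry1, a repressor of the clock, was at -0.24 ± 0.10 and Clock, one of its activators, at -0.12 ± 0.06. Of the blood markers 1 was tested, Alas2, a heme synthesis gene, at 0.12 ± 0.19.

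**Figure D4:**
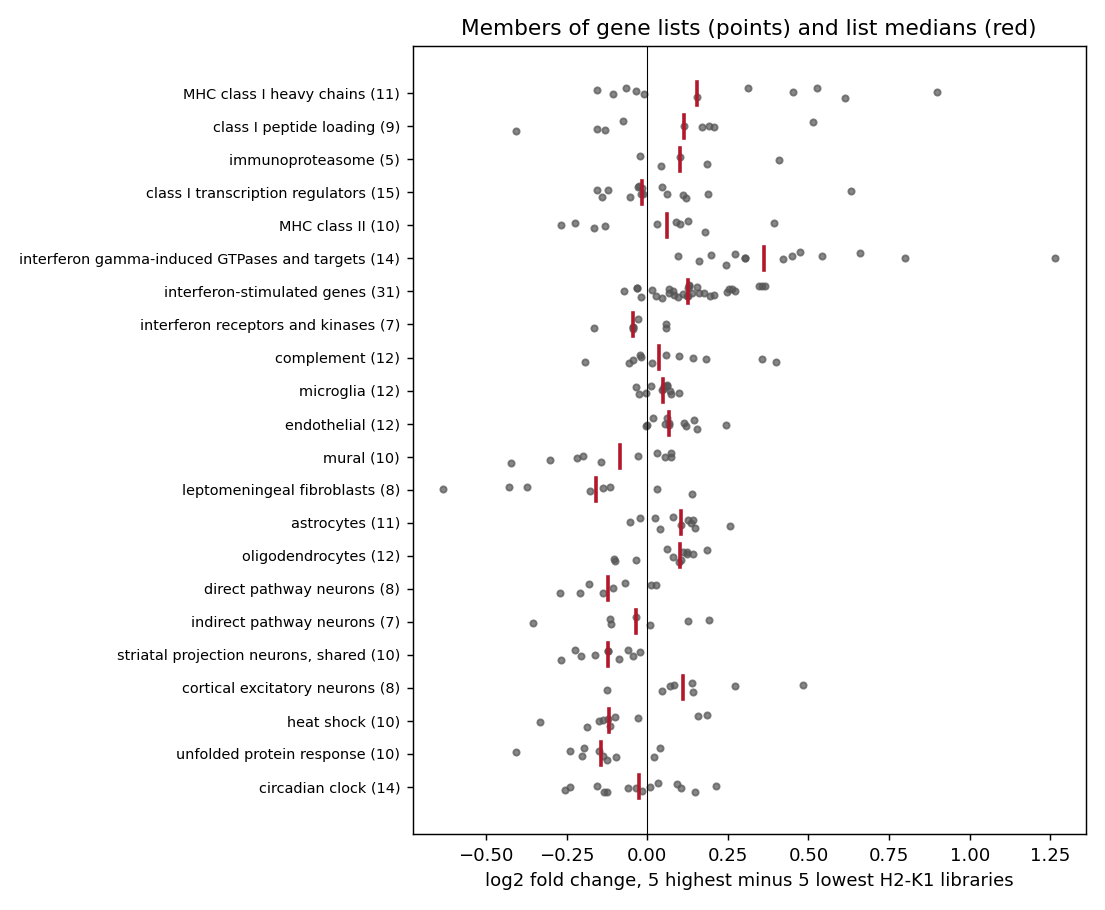
Log2 fold change (high minus low set) of the tested members of 22 gene lists, 1 grey point per gene, with list medians as red bars and the number of tested members in brackets. The interferon gamma list lies wholly above 0 (median 0.36), heavy chains have a median of 0.15 with a wide spread, and the shared striatal neuron list lies below 0 (median -0.12).

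Of the 10 genes with the smallest p, 4 were GTPase genes described above. Trim27, a ubiquitin ligase gene, was at 19.8, 21.3, 20.5, 20.2 and 19.3 CPM in the high set and 17.8, 18.0, 17.1, 17.5 and 16.8 CPM in the low set, without overlap and with little spread in either set, a difference of 0.21 ± 0.05. Dkk2, a secreted Wnt modulator, ran from 1.42 to 1.87 CPM in the high set and from 2.02 to 3.49 CPM in the low set, at -0.70 ± 0.17. Dcun1d1, a neddylation gene, was at -0.21 ± 0.05, Fam115a at -0.19 ± 0.05 and 1700061G19Rik, at under 1 CPM, at -1.30 ± 0.30. Xist, the RNA of the inactive X chromosome, was at -6.98 ± 1.80. It stood at 1404 and 1484 CPM in the 2 female-like libraries of the low set and at 1.46 to 11.3 CPM in the other 8 libraries.

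Over all 16 libraries the genes with the rank order most like H2-K1, among those of at least 1 CPM on average, were Shroom1, Gbp2, B2m, H2-D1 and Tmem117, with Spearman correlations of 0.815, 0.806, 0.803, 0.803 and 0.800. The most opposite were Mir3072 and Ppapdc2 at -0.821 each, Mtmr7 and Tmem132b at -0.794 each and Pik3c3 at -0.782. These 10 were picked as extremes of all genes, so their values are a description. Shroom1, an actin-binding protein gene, ran from 9.28 to 11.4 CPM in the high set and from 7.62 to 9.07 CPM in the low set.

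For 5 class I genes correlations with H2-K1 were computed on log2 CPM over the 16 libraries, with permutation p-values adjusted over the 5. The 5 were chosen with earlier results of these data known, so these p-values do not stand for a search over all genes. The continuous edgeR fit described below, adjusted over all genes, gave an adjusted p of 0.00305 for H2-D1 and 0.113 for Tap1. It gave 0.124 for B2m, 0.573 for Nlrc5 and 0.728 for Psmb8. Tap1 had a Pearson r of 0.853 (adjusted p = 0.0001) and a Spearman rho of 0.794 (adjusted p = 0.00065). H2-D1 had an r of 0.887 (adjusted p = 0.0002) and a rho of 0.803 (adjusted p = 0.00065), and B2m an r of 0.777 (adjusted p = 0.000617) and a rho of 0.803 (adjusted p = 0.00065). Nlrc5 had an r of 0.706 (adjusted p = 0.00225) and a rho of 0.659 (adjusted p = 0.00801). Leaving out the 2 libraries farthest from the median of H2-K1, labelled wild type 1 and 8, gave an r of 0.741 for Tap1, 0.622 for H2-D1, 0.532 for Nlrc5 and 0.50 for B2m. Psmb8 had an r of 0.541 (adjusted p = 0.0426) but a rho of 0.141 (adjusted p = 0.601), and its r without the 2 libraries was 0.132, so that relation rested on them. The libraries share depth differences, and H2-D1 shares 6.52% of the 50-base stretches of H2-K1.

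When log2 H2-K1 was fitted as a continuous value over all 16 libraries, 2 of 16071 genes passed at an adjusted p under 0.05 in edgeR, both higher (0.0124%). H2-D1 rose by 0.87 ± 0.11 log2 units per log2 unit of H2-K1 (adjusted p = 0.00305) and H2-Q4 by 1.11 ± 0.15 (adjusted p = 0.0062). Both also passed with labelled genotype as a covariate and in the 11 male-like libraries alone. Within a label neither passed: H2-D1 had an adjusted p of 0.106 in the libraries labelled wild type and 0.955 in those labelled knockout, and H2-Q4 0.221 and 0.955. Neither passed with mouse number as a block, where the adjusted p-values were 0.234 and 0.361. The labels do not say whether equal mouse numbers mark a pair. Neither passed without the library labelled wild type 1, where the slopes were 0.63 ± 0.17 and 0.57 ± 0.22 and the smallest adjusted p over all genes was 0.459. In the same fits Tap1 had a slope of 0.81 ± 0.15 with all libraries and 0.94 ± 0.24 without wild type 1, and B2m 0.56 ± 0.10 and 0.51 ± 0.17 (adjusted p = 0.113 and 0.124 with all libraries). Of the 14 genes of the interferon gamma list, 10 were higher at an unadjusted p under 0.05 in the continuous fit, where 3.7% of all genes were, and 11 in that without wild type 1, where 4.45% were. The calls for H2-D1 and H2-Q4 were lost without the highest library, while Tap1 and B2m were not called with it or without it. The slopes of Tap1 and B2m were similar without that library, and that of H2-D1 (0.63) still lay above that of B2m (0.51).

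**Figure D5:**
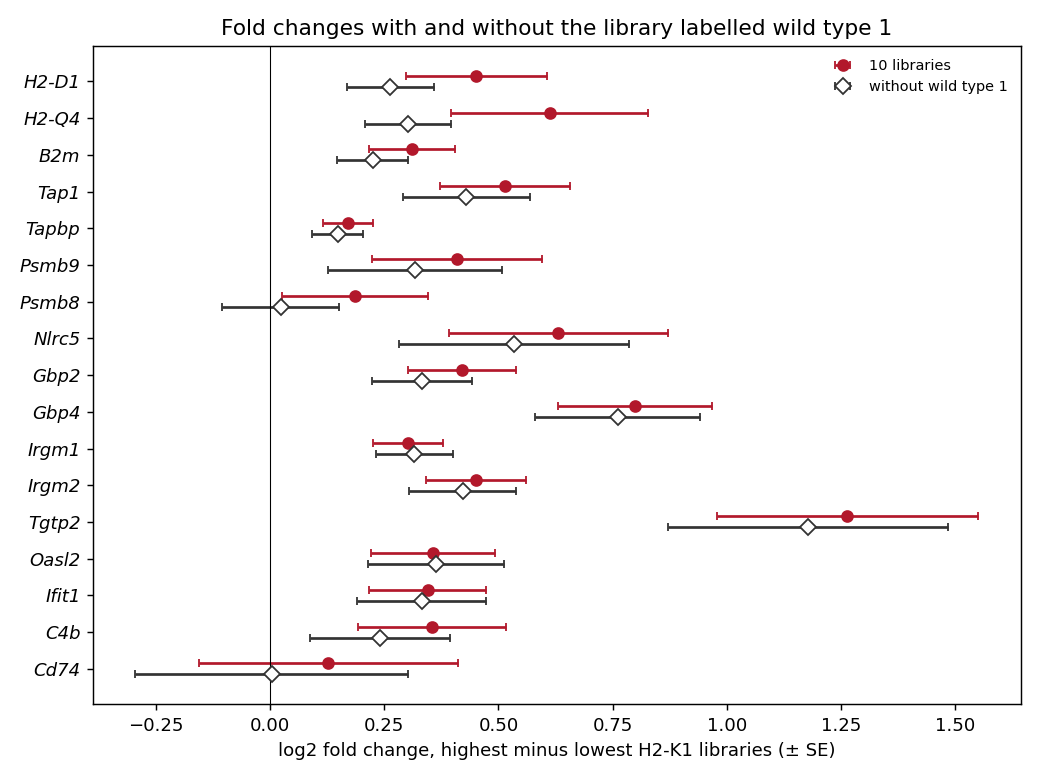
Log2 fold change (± SE) between the high and the low set for 17 genes with all 10 libraries (filled circles) and without the library labelled wild type 1 (open diamonds). H2-Q4 goes from 0.61 to 0.30, H2-D1 from 0.45 to 0.26 and Psmb8 from 0.19 to 0.02, while Gbp4 (0.80 and 0.76), Irgm1 (0.30 and 0.32) and Oasl2 (0.36 and 0.36) change little.

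The interferon gamma list kept its direction without that library. All 14 genes were still above 0, with a median of 0.33, and 10 reached an unadjusted p under 0.05, where 2.09% of all genes were higher. Gbp4 was at 0.76 ± 0.18, Tgtp2 at 1.18 ± 0.31, Irgm2 at 0.42 ± 0.12 and Irgm1 at 0.32 ± 0.08. The 6 middle libraries, whose H2-K1 spanned only 24.1 to 27.0 CPM, were not used in the comparison. Between ranks 6 to 8 and ranks 9 to 11, 10 of the 14 genes were higher in the upper 3, against 47.8% of all genes, with a median of 0.09. Tissue markers moved further in the same split. Of the shared striatal neuron markers 0 of 10 were higher in the upper 3 (median -0.31), and of the cortical markers all 8 were (median 0.44). The upper 3 were all female-like and the lower 3 all male-like, so H2-K1 rank and transcript sex cannot be told apart among them. There B2m was at 0.25, H2-D1 at 0.18, Iigp1 at 0.42 and Tap1 at 0.00. Neighbouring ranks among these libraries lie within the counting error of H2-K1.

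Since labels and transcript sex moved with the sets, the key genes were fitted with each as a covariate. With labelled genotype in the model H2-D1 was at 0.43, H2-Q4 at 0.56, Tap1 at 0.45 and Gbp4 at 1.00. B2m went from 0.31 to 0.19 and Nlrc5 from 0.63 to 0.37. With transcript sex in the model H2-D1 was at 0.34, B2m at 0.37, Tap1 at 0.56 and Gbp4 at 0.82 (edgeR adjusted p = 0.99967 for each). All 5 high libraries were male-like, so this fit in effect set them against the 3 male-like low libraries, labelled knockout 2, 5 and 7. The median of the interferon gamma list stayed between 0.27 and 0.42 over the 28 alternatives that compared a high with a low set. With edgeR none of these alternatives called a gene of the class I or interferon lists.

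Genes close to H2-K1 on chromosome 17 were counted to describe the region around the ranked gene. Of 43 tested genes within 0.5 Mb, 30 were above 0, against 50.6% of all genes, with a median of 0.07. At an unadjusted p under 0.05 4 were higher, where 2.08% of all genes were, and 0 lower, where 2.67% were. The 4, by rising p, were Tap1, Tapbp, Ring1 and Psmb9. Of these, Tap1, Tapbp and Psmb9 are also counted above in the peptide loading and immunoproteasome lists. Ring1, a Polycomb subunit with no known role in antigen presentation, was at 30.0 ± 1.32 CPM in the high set and 27.1 ± 1.38 CPM in the low set (SD, n = 5 each), a difference of 0.14 ± 0.05.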

How the data were processed

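The authors deposited raw counts of reads for each gene in 64 files, with 4 lanes on 2 flow cells for every library. Tools in the submitters' processing notes are TopHat2 2.0.0, edgeR 2.14, HTSeq 0.6.1p1 and FastQC 0.10.1, beside build mm10. No annotation or strand option is stated for the counting, so overlapping genes may not be told apart. Lanes were summed per library. The 5 summary entries were left out (18.0% to 19.8% of reads in no gene, 0.765% to 0.834% ambiguous, 21.1% to 22.9% with more than 1 alignment). CPM is the count over the gene-read total.

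Libraries were ranked by H2-K1 CPM, H2-K1 was dropped, and the sets were compared with edgeR 4.0.16 in R 4.3.3 (filterByExpr, TMM scaling, quasi-likelihood F test, two-sided, Benjamini-Hochberg over 15497 genes, which held 99.96% of gene reads). The labels name 16 separate mice, so p-values reflect the spread between mice, but the sets were formed from a measured value. DESeq2 1.42.0 and limma 3.58.1 were alternatives. Log2 changes use TMM scaling and CPM levels the plain totals. Correlations used 100000 permutations (Python 3.11.15, scipy 1.17.1). The fit was tested on simulated counts. Counting intervals cover counting error only, since reads carry no molecular identifiers.

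The members, the 32 gene lists and the rules were chosen with earlier results of these data known. Hspa5, Pdgfra and Cspg4 each stand on 2 lists. Named genes were the 10 with the smallest p, the 2 of smallest p on each list, 13 fixed class I, interferon and control genes, the 5 highest and 5 lowest Spearman correlations with H2-K1, and the 3 of smallest p within 0.5 Mb of it. Of the genes so named, 2 are not reported here; list counts and medians include them. Other genes of the class I, interferon and marker lists are named to account for those lists. Continuous fits without wild type replicate 1, with labelled genotype or within a label or transcript sex were added after seeing the data. Positions are from GENCODE M21 and promoters from RefSeq.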

Additional observations from a re-analysis of the deposited data

Results flagged for a closer look

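In 12 of 160 groups searched, a single library lay far from the other members of its set or label. About 1 in 20 groups would do so by chance. H2-K1 stood apart in the library labelled wild type 1, at 47.5 CPM among the 8 labelled wild type. The same library was far above the other 4 high libraries in H2-D1 at 24.3 CPM, H2-Q4 at 14.7 CPM and Psmb8 at 5.26 CPM. In the library labelled wild type 8 Oasl2 was at 6.45 CPM and C1qc at 59.4 CPM, above the rest of the high set. The library labelled wild type 7 was apart in the low set in Ttr at 2149 CPM, Folr1 at 18.6 CPM and Igf2 at 112.5 CPM. In the library labelled wild type 4 Csnk1e was at 84.5 CPM, far above the other high libraries, and Sfxn1, at 68.8 CPM, far below them. 1700061G19Rik was at 0.745 CPM in the low library labelled knockout 7.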

How the results depend on the processing

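Over 35 alternatives, 30 called 0 genes at an adjusted p under 0.05. Of the others, DESeq2 called 2 and the comparison with labelled genotype as a covariate 6. The continuous fits over 16 libraries, with labelled genotype, and in the male-like libraries alone called 2 each. The 6 were all lower: Kcnj13, Folr1, Kcne2 and Sostdc1 of the choroid plexus list, and 1500015O10Rik and Gmnc. Wild type 7, the library with the choroid plexus transcripts, was the only low library labelled wild type. Leaving out each library in turn called 0 in every case, and the count at an unadjusted p under 0.05, 737 in the comparison, ran from 398 without knockout 8 to 1795 without knockout 7, with 481 without wild type 8. That count was 1385 for the 8 highest against the 8 lowest and 264 with the sex-like covariate. In continuous fits it was 1573 without wild type 1, 1172 with labelled genotype and 414 in the male-like libraries. Upper quartile scaling gave 476 higher and 279 lower genes at that level, against 323 and 414.

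The labels do not say whether equal mouse numbers mark a pair, and the correlations cannot settle it. Of 8 pairs with the same mouse number 1 correlated above 0.1 (range -0.41 to 0.15), and 0 libraries correlated best with their own number. A replicate block on that number in the continuous fit called 0 genes in place of 2, with 1323 at an unadjusted p under 0.05. Under the block the slopes per log2 unit of H2-K1 were -0.15 for H2-DMa, -0.10 for Trem2, -0.033 for Alas2, -0.079 for Cspg4 and -0.52 for Cd74.

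Of 2744 gene values, 45 reversed, 28 of them in continuous fits, and the cause was not tested. A reversal is a sign opposite to that of the high minus low difference. Values from continuous fits are slopes per log2 unit of H2-K1, not fold changes between the sets. They are those marked continuous, with genotype, wild type alone, knockout alone and male-like. Alas2 was at -0.051 (4 against 4), -0.053 (8 against 8), -0.024 (ranked on TMM-scaled CPM), -0.040 (second flow cell), -0.014 (continuous), -0.071 (with genotype), -0.012 (wild type alone), -0.33 (knockout alone) and -0.16 (male-like). Ttr was at 0.17 (4 against 4), 0.035 (without choroid plexus libraries) and 11.5 (knockout alone). Xist was at 0.39 (8 against 8), 0.56 (sex-like covariate) and 0.45 (male-like). Il2rb was at -0.15 (8 against 8) and -0.15 (continuous without wild type 1). Ttc12 was at -0.046 and Junb at -0.015 (8 against 8), Junb at -0.013 and Igf2 at 0.0013 (sex-like covariate), and Cd79b at -0.28 (genotype covariate). In continuous fits without wild type 1 Psmb8 was at -0.018 and Cd74 at -0.11. Leaving out each library in turn, Il2rb ran from -0.020 to 0.36, Cd74 from -0.025 to 0.33 and Ttr from -5.88 to 0.035. Ccdc153 was at -0.060 (with genotype), -0.46 (wild type alone) and -0.021 (male-like), Foxj1 at -0.032 (wild type alone) and Cspg4 at -0.0076 (male-like). In libraries labelled knockout alone Cbr2 was at 0.11, Cd79b -0.81, Myh11 0.45, Col1a1 0.37, Igf2 0.85, Folr1 1.62, Neurod2 -0.41 and Csnk1e 0.29.

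The precision is limited by 5 libraries per set, by set edges within the counting error of H2-K1, and by low counts of genes such as Tgtp2.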
